A study of Homo sapiens with 4 samples.

Results

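TOV21G is a human cell line from an ovarian clear cell carcinoma, and GSK458 is a small molecule that inhibits PI3K and mTOR. The comparison described here sets the culture that received GSK458 alone, at 0.1 µM for 48 h, against the control culture, which received no drug and for which the labels give no time. The other 2 of the 4 libraries came from cells given As2O3, arsenic trioxide, at 1 µM for 48 h, and from cells given both drugs at these doses for 48 h. Each group is 1 library of poly(A) RNA from this 1 cell line, so nothing below carries a replicate error or was tested, and the values describe these libraries alone. Levels are FPKM, fragments scaled to the length of the transcript and to the number of mapped fragments, which can be compared between genes. Of 26255 symbols in the deposited table, 12200 averaged 1 FPKM or more across all libraries and were not small RNA symbols, and these were compared. A difference is the log2 of (FPKM + 1) with GSK458 minus that in the control, a scale that understates differences of low genes. "Higher" and "lower" refer to this difference. Where 4 levels are printed for a gene, they are in the order control, As2O3, GSK458 and both drugs.

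PI3K is a lipid kinase that insulin, growth factor receptors and their adaptor proteins switch on, and the lipid it makes recruits the kinase AKT to the membrane, where PDPK1 and the mTOR complex mTORC2 activate it. AKT keeps FOXO transcription factors out of the nucleus and relieves the brake that the TSC proteins place on RHEB and mTORC1. Active mTORC1 phosphorylates S6 kinases and the 4E-BP repressors of the cap-binding protein EIF4E, promotes translation of messages that start with a run of pyrimidines (5′ TOP messages), and supports lipid, nucleotide and glycolytic enzyme expression. Cells whose PI3K and mTOR activity is blocked commonly stop in G1, and genes of S phase and mitosis are then read less through E2F and the MuvB complexes.

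The library of GSK458-treated cells had the most symbols above 0 (16409, against 16191 in the control), and its relative depth, read from the steps between low values, was 109% of the control's. In the control the summed FPKM of 8 markers each was 4.21 for fibroblasts, 1.18 for immune cells and 0.017 for endothelial cells, and with GSK458 it was 2.65, 1.35 and 0.079, so these lineages were at or near 0 in both libraries. PAX8, a transcription factor that marks ovarian carcinomas, stood at 96.8 and 83.6 FPKM in the control and with GSK458.

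Between the 2 libraries 9917 of the 12200 genes (81.3%) lay within 1.5-fold of each other. At least 2-fold higher with GSK458 were 269 genes, which is 2.2% of those compared, and 459 were at least 2-fold lower, or 3.76%. The low side held the larger differences: 114 genes (0.934%) were at least 4-fold lower and 19 (0.156%) at least 4-fold higher. Of any size, 49.4% of genes were higher and 50.6% lower. These percentages are the background for each count below. The near-even split depends on how libraries were scaled. With libraries rescaled to equal sums, the median of all genes moved from −0.01 to −0.11. Of the 459 lower genes 178 belong to lists of cell cycle genes (280 genes compared), and 83 of the 114 genes at least 4-fold lower do. None of the 269 higher genes does. In bulk RNA a lower level per cell and fewer cells that express a gene, such as cells in division, cannot be told apart.

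**Figure D1:**
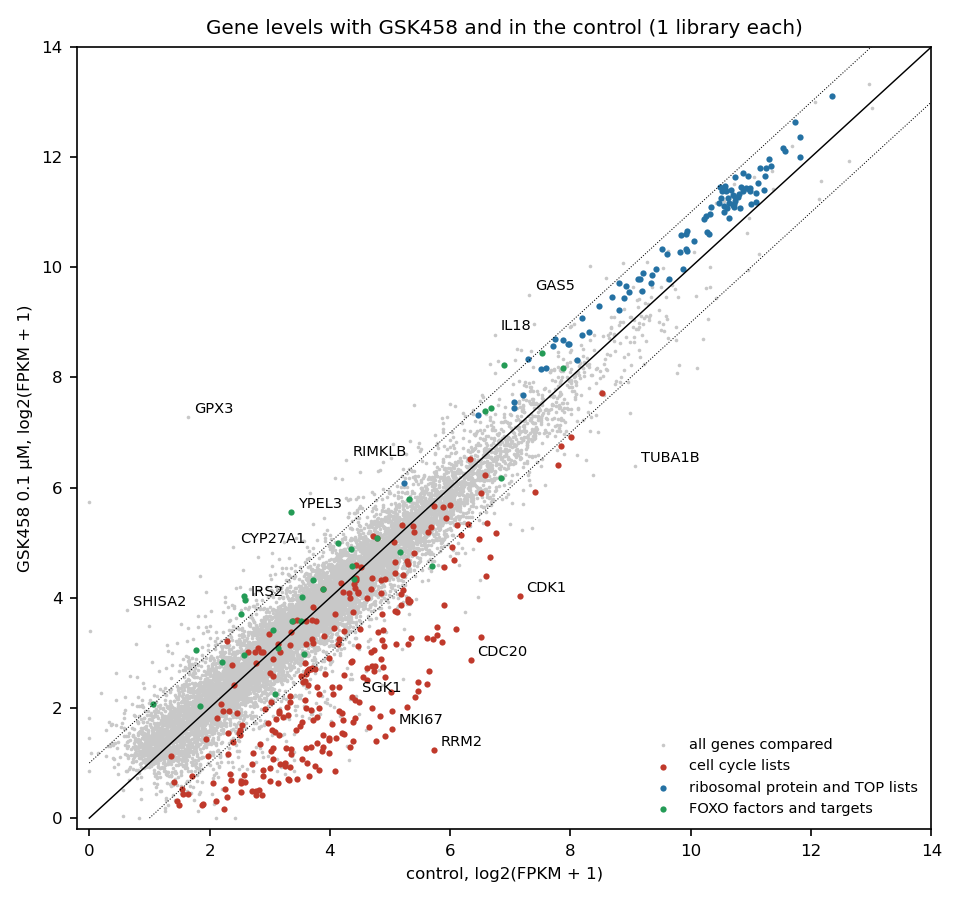
Level of each of the 12200 genes in the control (x axis) and with GSK458 (y axis), both as log2(FPKM + 1), with genes of the cell cycle lists in red, ribosomal protein and TOP lists in blue and FOXO factors and targets in green. The solid line marks equal levels and the dotted lines a 2-fold difference; red points reach furthest below the lines, blue points lie just above the diagonal, and GPX3 lies far above the lines.

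The sequences in front of the genes are shown first, because members of the lower and of the higher lists differ in them. They are RefSeq promoters of build GRCh38.p14, each read 5′ to 3′ on the strand of the gene and ending at the base before the first listed start, and 9810 of the 12200 genes (80.4%) matched an entry. Searched on both strands of the 250 bases before the start were the CHR (TTTGAA or TTCGAA), a site that MuvB complexes bind in genes of the G2 phase and mitosis; CCAAT, a box bound by NF-Y that often lies close by; an E2F site (TTTCCCGC, TTTGGCGC or TTTCGCGC); a FOXO site (GTAAACA); and an SREBP site (TCACNCCAC). None of these motifs contains another. A match describes letters and does not show binding. The genes printed were picked with their values known, as were, here and below, list members that are named next to the largest differences or from the other end of a list.

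The following 120 bases lie before the starts of 5 genes of mitosis that were at least 4-fold lower, with CHR and CCAAT in capitals on either strand. CDC20 activates the anaphase-promoting complex (chr1:43358861-43358980, plus strand), PLK1 is a mitotic kinase (chr16:23678769-23678888, plus strand), CCNB2 is a mitotic cyclin (chr15:59105026-59105145, plus strand), and KIF23 (chr15:69414229-69414348, plus strand) and PRC1 (chr15:90994536-90994655, minus strand) organise the central spindle on which daughter cells divide.
CDC20: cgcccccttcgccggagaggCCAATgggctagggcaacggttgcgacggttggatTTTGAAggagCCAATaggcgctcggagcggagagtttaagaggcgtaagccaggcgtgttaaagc
PLK1: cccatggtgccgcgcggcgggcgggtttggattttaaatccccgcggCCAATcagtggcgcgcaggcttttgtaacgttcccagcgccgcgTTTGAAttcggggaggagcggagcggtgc
CCNB2: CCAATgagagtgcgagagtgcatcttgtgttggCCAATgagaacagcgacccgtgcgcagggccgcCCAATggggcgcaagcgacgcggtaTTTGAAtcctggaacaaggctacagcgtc
KIF23: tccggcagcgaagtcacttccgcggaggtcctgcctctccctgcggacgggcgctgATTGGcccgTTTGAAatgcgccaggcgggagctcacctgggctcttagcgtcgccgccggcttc
PRC1: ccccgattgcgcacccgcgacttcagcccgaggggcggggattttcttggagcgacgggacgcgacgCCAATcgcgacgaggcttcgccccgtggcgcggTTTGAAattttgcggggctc
Each holds 1 CHR, and the CCAAT box nearest to it lies within 50 bases. Levels were 80.1, 89.2, 6.29 and 14.8 FPKM for CDC20, 38.0, 49.8, 3.04 and 8.69 for PLK1, 39.9, 58.6, 8.69 and 15.2 for CCNB2, 19.6, 21.2, 3.56 and 5.09 for KIF23 and 38.2, 57.4, 7.98 and 11.7 for PRC1. In all 5 genes both libraries with GSK458 were lower than both without it.

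E2F sites were more frequent than CHR in the origin licensing and replication fork lists. The deoxyribonucleotide supply list held an E2F site in 1 and a CHR in 2 of 13 promoters. The homologous recombination list held them in 1 and 4 of 25. The next 3 stretches are the 100 bases before E2F1, an E2F factor itself (chr20:33686386-33686485, minus strand), PCNA, the sliding clamp of DNA polymerases (chr20:5126623-5126722, minus strand), and UHRF1, which guides maintenance of DNA methylation (chr19:4909401-4909500, plus strand), with E2F sites in capitals.
E2F1: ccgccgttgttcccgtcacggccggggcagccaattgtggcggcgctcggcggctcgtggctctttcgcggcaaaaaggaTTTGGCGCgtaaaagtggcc
PCNA: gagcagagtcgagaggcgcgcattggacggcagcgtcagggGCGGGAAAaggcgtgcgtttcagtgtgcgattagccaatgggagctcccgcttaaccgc
UHRF1: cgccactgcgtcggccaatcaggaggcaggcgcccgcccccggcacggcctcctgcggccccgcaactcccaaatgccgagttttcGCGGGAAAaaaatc
Their levels were 8.03, 7.92, 0.98 and 1.37 FPKM for E2F1, 101, 65.3, 25.6 and 25.3 for PCNA and 15.9, 8.94, 0.811 and 1.80 for UHRF1. In each of them the lower 2 of the 4 values were those of the GSK458 libraries.

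At the other end are messages whose first base is a C followed by at least 4 pyrimidines, here called a TOP start. The stretches run from 15 bases before the start to 20 bases into the transcript, with the pyrimidine run from the start in capitals. RPS27 (chr1:153990747-153990781, plus strand), RPL39 (chrX:119791611-119791645, minus strand) and RPL31 (chr2:101002274-101002308, plus strand) encode ribosomal proteins. EEF1A1 (chr6:73521013-73521047, minus strand) is an elongation factor, EIF4A2 (chr3:186783562-186783596, plus strand) an initiation helicase, and EIF4B its cofactor (chr12:53006441-53006475, plus strand). TAF1D, a subunit of an RNA polymerase I factor (chr11:93741476-93741510, minus strand), and the non-coding ZFAS1 (chr20:49278627-49278661, plus strand) host small nucleolar RNAs in their introns. EIF4E (chr4:98929114-98929148, minus strand), the cap-binding protein, is shown as a translation gene without such a start.
RPS27: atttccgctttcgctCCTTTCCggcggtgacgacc
RPL39: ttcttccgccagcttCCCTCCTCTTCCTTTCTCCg
RPL31: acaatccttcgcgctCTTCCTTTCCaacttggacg
EEF1A1: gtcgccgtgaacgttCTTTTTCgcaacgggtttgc
EIF4A2: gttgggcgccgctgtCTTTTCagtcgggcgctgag
EIF4B: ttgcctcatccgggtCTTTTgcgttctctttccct
TAF1D: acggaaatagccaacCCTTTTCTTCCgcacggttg
ZFAS1: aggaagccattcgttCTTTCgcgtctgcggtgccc
EIF4E: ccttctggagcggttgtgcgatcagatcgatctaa
The 8 messages with a TOP start had differences between 0.76 (EEF1A1) and 1.51 (TAF1D), all above 0, while EIF4E stood at −0.45.

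Over all genes with a promoter entry, 9.18% held a CHR, 35.7% a CCAAT box, 3.98% both, 4.03% an E2F site, 1.94% a FOXO site, 0.795% an SREBP site and 5.56% a TOP start. Among the 381 of 459 genes at least 2-fold lower that had an entry, the shares were 21.0% for CHR, 58.0% for CCAAT, 15.0% for both and 10.2% for E2F, with 2.89% for a TOP start. Of the 30 kinesin and spindle genes with an entry, 50% held a CHR and 43.3% held CHR and CCAAT. Of the 23 replication fork genes none held a CHR and 26.1% held an E2F site, and of 22 origin licensing genes 27.3% held an E2F site and 4.55% a CHR. Of 13 deoxyribonucleotide supply genes 7.69% held an E2F site and 15.4% a CHR, and of 25 homologous recombination and Fanconi anaemia genes 4% and 16%. A TOP start stood in 40 of 56 ribosomal protein genes (71.4%) and in none of 23 cap-binding and other initiation factor genes. For the mitotic kinases, kinetochore genes, the other TOP messages, the cholesterol genes and the genes at least 2-fold higher, fewer than 80% had an entry, so the same check is void for them.

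Read the other way, from sequence to difference, the 390 genes with CHR and CCAAT had a median of −0.13, and 57 of them (14.6%) were at least 2-fold lower. Outside the cell cycle and TOP lists 22 of 348 such genes (6.32%) were, against 3.44% of genes without the pair, members of the lists included. The 545 genes with a TOP start had a median of 0.20 with 65.5% higher, and the 478 of them outside those lists a median of 0.15 with 62.3% higher. Genes without a TOP start, members of the lists included, had a median of −0.03 with 47.0% higher. Within the ribosomal proteins the start as called here made no such distinction: the median was 0.54 for 40 genes with it and 0.53 for 16 without. The call rests on the first listed start of each gene, and the starts used in these cells were not measured. The 16 may therefore include messages with such a run. The 190 genes with a FOXO site had a median of 0.06. In the list of FOXO factors and targets 2 of 28 promoters (7.14%) held the site.

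**Figure D2:**
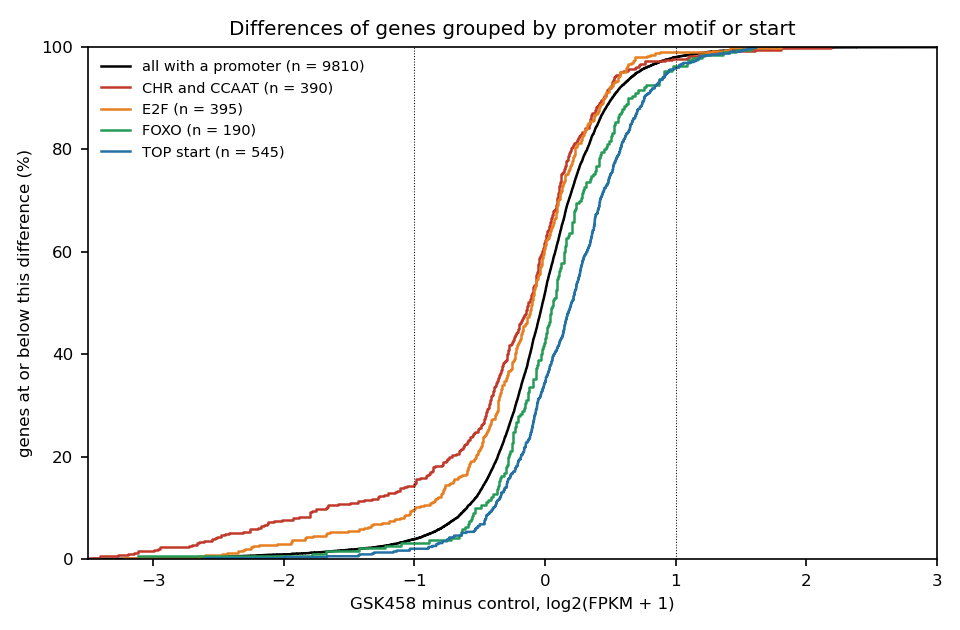
Cumulative share of genes (y axis, percent) at or below each GSK458 difference (x axis, log2 of FPKM + 1), for all 9810 genes with a promoter entry and for those with CHR and CCAAT, an E2F site, a FOXO site or a TOP start; dotted lines mark 2-fold. The curve for CHR and CCAAT leaves the others on the low side, where 14.6% of its genes are at least 2-fold lower, and the TOP curve lies to the right with 65.5% of its genes above 0.

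Among components of the pathway itself, the receptors and the adaptors that dock PI3K to them stood slightly to the high side, with single large differences. Of 17 receptor tyrosine kinases compared, 11 were higher and 6 lower, with a median of 0.10 that turned negative when libraries were rescaled to equal sums. IGF1R, the receptor of insulin-like growth factors, had 2.41, 2.11, 7.28 and 8.21 FPKM and a difference of 1.28. Both libraries with GSK458 were about equal and above both without it. INSR, the insulin receptor, stood at 3.64, 4.12, 6.13 and 6.54 FPKM (0.62), and the TAM receptor AXL at 14.9, 34.0, 29.6 and 34.8 FPKM (0.95), where the As2O3 library was as high as those with GSK458. MET and MERTK, receptors of hepatocyte growth factor and of GAS6, both had a difference of 0.60. FGFR4 was the receptor at least 2-fold lower, at 23.9, 17.7, 8.28 and 8.31 FPKM (−1.42). ERBB2, ERBB3, EGFR and FGFR1 lay between −0.06 and 0.10, at 48.0 and 47.2, 10.5 and 11.0, 16.6 and 17.9 and 81.4 and 78.2 FPKM in the control and with GSK458. The other 7 receptors compared ran from −0.61 (FGFR2, 46.8 and 30.2 FPKM) to 0.45 (ROR1), with DDR1 at 0.37, EPHB4 at 0.16, TYRO3 at 0.00, EPHA2 at −0.03 and ERBB4 at −0.13. FGFR3, PDGFRA, PDGFRB, RET, KIT and DDR2 did not reach a mean of 1 FPKM.

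The 17 adaptors had a median of 0.22, 12 of them higher. IRS2, which couples the insulin and IGF receptors to PI3K, stood at 4.98, 10.1, 14.5 and 17.4 FPKM (1.38), and its relative IRS1 at 9.30, 6.65, 12.8 and 12.3 FPKM (0.43). GAB2, a docking protein that carries PI3K binding sites, had 4.43, 11.2, 17.1 and 20.1 FPKM (1.74). For IRS2 and GAB2 the control was the lowest of the 4 libraries and As2O3 alone lay between the control and the GSK458 libraries. The next adaptors were SH2B3 (0.64), GRB7 (0.56) and SH2B1 (0.34), and the adaptors that lead to RAS, SHC1 and GRB2, stood at −0.32 and −0.21. SOS1, SOS2, FRS2, FRS3, GAB1, GRB10, GRB14, CBL and CBLB lay between −0.22 (GRB14) and 0.30 (SOS2). Among ligands and IGF binding proteins, 12 of 16 were higher (median 0.43). IGFBP6, which binds IGF2, stood at 22.2, 54.3, 48.6 and 65.7 FPKM (1.10) and IGFBP2, another binder, at 433, 404, 244 and 179 FPKM (−0.82).

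The next list held PI3K subunits, phosphatases of its lipid product, PIK3IP1, PDPK1 and AKT phosphatases. Of its 20 genes 13 were higher and 7 lower, and 2 lay beyond 2-fold. PIK3IP1, a membrane protein that restrains PI3K, stood at 4.93, 8.08, 15.3 and 13.5 FPKM (1.46). PIK3R3, a regulatory subunit, stood at 23.2, 5.28, 5.33 and 3.83 FPKM (−1.94), so the control was above all 3 treated libraries. The catalytic subunits PIK3CA, PIK3CB and PIK3CD had 10.2 and 12.4, 5.83 and 6.27 and 6.98 and 13.2 FPKM in the control and with GSK458, differences of 0.26, 0.09 and 0.83. Of the regulatory subunits PIK3R1 was at −0.69, PIK3R2 at −0.29 and PIK3R4, which partners the class III enzyme, at −0.30. INPP5K and INPPL1, which remove a phosphate from the lipid that PI3K makes, were at 0.67 and 0.55, INPP5E at 0.31, INPP4B at 0.22 and INPP4A at 0.06. PDPK1, the kinase that activates AKT, had a difference of 0.36. PIK3C3, PIK3C2A, PIK3C2B and the AKT phosphatases PHLPP1 and PHLPP2 ran from −0.26 (PIK3C2B) to 0.24 (PIK3C3).

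Of 25 genes for AKT, its relatives, the TSC proteins and the mTOR complexes, 18 were lower (median −0.22), nearly all by little. The 2 beyond 2-fold were SGK kinases, relatives of AKT that mTORC2 activates. SGK1 stood at 20.5, 5.86, 3.66 and 4.33 FPKM (−2.21) and SGK2 at 19.5, 6.75, 5.17 and 4.27 FPKM (−1.73), and for both the control was the only high library, As2O3 alone being low as well. SGK3 was at −0.38. AKT1 stood at 66.5 and 63.3 FPKM (−0.07) and AKT2 at 24.5 and 20.6 FPKM (−0.24). The kinase MTOR was at −0.43 and RPTOR, the scaffold that defines mTORC1, at −0.49, whereas RICTOR, which defines mTORC2, was at 0.80 with 3.55, 5.20, 6.91 and 7.52 FPKM. MLST8 and MAPKAP1, shared and mTORC2 subunits, were at −0.15 and −0.28, and the mTORC2 partners PRR5 and PRR5L at 0.53 and 0.07. The TSC complex differed among its parts: TSC2 was at 0.46, TSC1 at 0.23 and TBC1D7 at −0.63. Targets of mTORC1 were EIF4EBP1 at 60.1, 137, 36.5 and 45.9 FPKM (−0.70) and EIF4EBP2 at 0.22. Others were RPS6KB1 at −0.14, RPS6KB2 at −0.64 and the autophagy kinase ULK1 at 0.56. EIF4E, which the 4E-BP proteins repress, was at −0.45. RHEB, RHEBL1, AKT1S1 and DEPTOR, an activator of mTORC1, its relative and inhibitory partners of mTOR, lay between −0.29 (RHEB) and −0.03 (RHEBL1).

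Above mTORC1, the 26 genes of amino acid and stress sensing had a median of −0.19, and 2 were at least 2-fold lower. DDIT4, a stress-induced activator of the TSC complex, stood at 1105, 1152, 289 and 306 FPKM (−1.93), and SESN2, a leucine sensor that restrains mTORC1, at 33.8, 29.8, 13.1 and 15.0 FPKM (−1.30). Both of these brakes were lower in each library with GSK458 than in either without it.

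The list of FOXO factors and their known targets leaned to the high side: 25 of 32 were higher (median 0.43), 6 of them at least 2-fold, and 1 was at least 2-fold lower. YPEL3, a growth-inhibiting gene, was the highest at 9.26, 15.2, 46.2 and 50.8 FPKM (2.2). GABARAPL1, a protein of autophagosome membranes, stood at 118, 248, 298 and 334 FPKM (1.32), and GADD45A, a growth arrest gene, at 4.78, 32.0, 12.0 and 10.6 FPKM (1.17). GABARAPL1 was lowest in the control, with As2O3 alone nearer to the GSK458 libraries than to the control, and GADD45A was highest with As2O3 alone. With PIK3IP1, IRS2 and IGF1R, given above, these make up the 6. FBXO32, a ubiquitin ligase subunit induced in wasting muscle, was just under 2-fold (1.09 and 3.18 FPKM, 1.00), and next came TXNIP (0.91), which curbs glucose uptake, the MYC antagonist MXI1 (0.87), CITED2 (0.81), KLF6 (0.77) and PINK1 (0.59). The factors themselves were at 0.53 for FOXO1, 0.35 for FOXO3 and 0.21 for FOXO4. The cell cycle inhibitor CDKN1B stood at 26.6 and 33.1 FPKM (0.30), the pro-apoptotic BCL2L11 at 0.21 and BBC3 at −0.06, and PDK4, which holds back pyruvate oxidation, at 233 and 288 FPKM (0.31). CCNG2, YPEL5, GADD45B, RBL2 and KLF4 lay between 0.19 and 0.49. Lower were TSC22D3, a glucocorticoid-induced leucine zipper protein (51.0 and 22.8 FPKM, −1.13), BCL6 (−0.83), BNIP3 (−0.67), SESN3 (−0.60), CAT (−0.34) and SESN1 (−0.06).

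**Figure D3:**
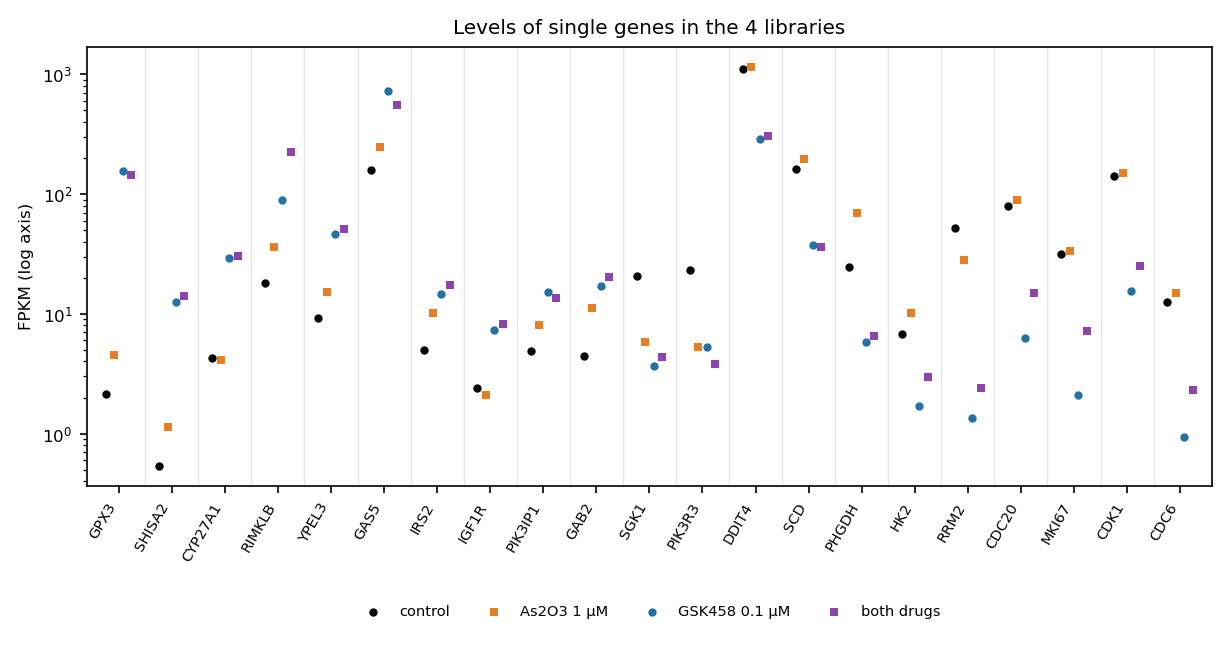
FPKM (log axis) of 21 single genes in the 4 libraries, 1 point per library, with the control in black, As2O3 in orange, GSK458 in blue and both drugs in purple. From RRM2 to CDC6 at the right the blue and purple points both lie far below the other 2, the blue lowest, at the left GPX3, SHISA2 and CYP27A1 show the opposite, and for SGK1 and PIK3R3 only the control is high.

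In the lists of ribosomal proteins and of other 5′ TOP messages every gene compared was higher, by less than 2-fold in all but 1 case. All 70 ribosomal protein genes were above 0, from 0.14 (RPSA) to 0.91 (RPS27), with a median of 0.54 against −0.01 for all genes. RPS27 stood at 3398, 3617, 6370.2 and 5537 FPKM and RPL39 at 1518, 1718, 2842 and 2419.8 FPKM, each with its highest value under GSK458 alone. Many ribosomal protein genes have processed pseudogenes, and the sources used here do not say how reads were shared with these. Of the 26 other TOP messages all were higher (median 0.74). EIF4A2 was 2-fold higher at 157, 272, 321 and 257 FPKM (1.03); next came VIM, the intermediate filament vimentin (0.97), NAP1L1, a histone chaperone (0.96), the poly(A)-binding protein PABPC1 (0.92), EIF4B (0.87) and EIF3M (0.87). The lowest of them were COX7C (0.09) and EEF1G (0.11). Initiation factors outside the TOP group went the other way in most cases, with 18 of 25 lower (median −0.23). EIF2B3, of the nucleotide exchange factor of initiation, was at −1.15, EIF5A at −0.83 and the scaffold EIF4G1 at −0.39, while EIF1, which selects the start codon, was at 383, 759, 897 and 804 FPKM (1.22). Of 37 genes of ribosome assembly and RNA polymerase I, 27 were lower (median −0.19) and none 2-fold, with NOP16 at −0.65. The 2 higher by 2-fold were TAF1D (31.5, 58.5, 91.9 and 74.6 FPKM, 1.51) and the pre-ribosome nuclease NOB1 (74.7, 144, 157 and 149 FPKM, 1.06).

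Genes whose introns encode small nucleolar RNAs were looked at after their values had been seen, because several stood among the 25 highest. Their spliced messages are mostly non-coding, and several, GAS5 among them, are known as TOP messages. Of 25 compared, 24 were higher and 11 at least 2-fold (median 0.84). GAS5 stood at 158, 248, 726 and 553 FPKM (2.19), SNHG7 at 41.1, 62.4, 179.6 and 163 FPKM (2.1) and EPB41L4A-AS1 at 11.7, 14.6, 58.9 and 45.4 FPKM (2.24). In these 3 the GSK458 library was the highest and the control the lowest. ZFAS1 was at 137, 161, 366 and 299.9 FPKM (1.42), C6orf48 at 167, 218, 501 and 406 FPKM (1.58), and LRRC75A-AS1 at 466, 532, 1084 and 884 FPKM (1.22). SNHG9 was the exception at 69.2, 22.9, 27.0 and 25.7 FPKM (−1.32), and SNHG25, counted among the 11, stood at 0, 39.7, 52.2 and 44.6 FPKM, so only the control was listed at 0 and no fold can be given. The small RNAs themselves are not measured by poly(A) libraries and were left out.

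The cell cycle lists held the largest differences on the low side. Among 30 mitotic kinases, cyclins and regulators of the anaphase-promoting complex all were lower and 27 at least 2-fold (median −2.53). CDK1, the kinase that drives entry into mitosis, stood at 142, 149, 15.4 and 25.2 FPKM (−3.12). AURKB, the kinase of the chromosomal passenger complex, had 41.9, 60.3, 3.56 and 7.57 FPKM (−3.23), and UBE2C, the ubiquitin carrier of the anaphase-promoting complex, 90.2, 144, 8.72 and 18.3 FPKM (−3.23). In each of these genes both GSK458 libraries were low and the library with both drugs was somewhat above that with GSK458 alone. CDC20 and PLK1, whose promoters are printed above, were at −3.48 and −3.27, the kinase PBK at −3.37, CCNA2 (cyclin A2) at −2.98 and GTSE1, a microtubule-associated protein of G2, at −2.95. At the other end of this list WEE1, which restrains CDK1, stood at 11.1 and 11.0 FPKM (−0.01), FZR1, the G1 activator of the anaphase-promoting complex, at −0.33, and the phosphatase CDC25B at −0.96.

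All 40 kinetochore and centromere genes were lower, 31 by at least 2-fold (median −1.65). BIRC5 (survivin), the passenger protein that also binds caspases, stood at 29.2, 30.1, 1.81 and 5.50 FPKM (−3.43), ZWINT at 48.3, 35.2, 4.37 and 10.5 FPKM (−3.20) and the outer kinetochore protein NDC80 at 9.999, 12.8, 0.638 and 2.72 FPKM (−2.75). CENPA, the histone variant that marks centromeres, was at −2.65, and the checkpoint protein BUB3 at −0.61. Of 32 kinesins and spindle proteins 29 were lower, 22 of them at least 2-fold (median −2.03). The mitotic motors KIFC1, KIF20A and KIF2C were at −3.10, −3.06 and −2.99, and TACC3, which stabilises the spindle, at −3.00. The transport kinesins KIF5B, KIF1B, KIF3A and KIF13B, which carry cargo outside mitosis, lay between −0.12 (KIF1B) and 0.40 (KIF3A). MKI67, the proliferation marker Ki-67 that coats mitotic chromosomes, stood at 31.7, 33.6, 2.08 and 7.21 FPKM (−3.41) and TOP2A, which untangles sister DNA, at 48.9, 67.2, 5.39 and 13.9 FPKM (−2.97). In the same list of 23 the condensin subunits NCAPG, NCAPH, NCAPG2 and NCAPD3 ran from −2.56 to −1.57, while the cohesin proteins SMC3, STAG1, STAG2, PDS5A and PDS5B lay between −0.22 and 0.00. DLGAP5 and FAM64A, also among the 25 lowest genes, act in mitosis and were at −2.99 and −3.26.

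DNA replication genes were lower in every one of the 26 licensing and firing genes (median −1.44, 19 at least 2-fold) and in every one of 28 fork genes (median −1.31, 21 at least 2-fold). CDC6, which loads the MCM helicase, stood at 12.5, 14.8, 0.928 and 2.32 FPKM (−2.81), MCM10 at 9.02, 8.31, 0.609 and 1.18 FPKM (−2.64), and the GINS subunit GINS2 at 17.6, 11.1, 2.43 and 3.94 FPKM (−2.43). The helicase subunit MCM4 was at −1.97 and the helicase cofactor CDC45 at −2.41, whereas the licensing factor CDT1 was at −0.39 and the origin recognition subunits ORC3 and ORC4 at −0.19 and −0.25. At the fork RNASEH2A was at −2.34, the flap nuclease FEN1 at −1.99, the ligase LIG1 at −1.94, PCNA at −1.94 and the checkpoint adaptor CLSPN at −1.90. Of 15 enzymes of deoxyribonucleotide supply 11 were lower, 8 of them at least 2-fold (median −1.11). RRM2, the cell-cycle-regulated subunit of ribonucleotide reductase, was the lowest of all 12200 genes, at 52.1, 28.2, 1.36 and 2.41 FPKM (−4.49). TK1, the thymidine kinase of S phase, stood at 57.0, 48.7, 8.21 and 10.6 FPKM (−2.65) and TYMS, which makes thymidylate, at 54.2, 49.9, 8.95 and 15.4 FPKM (−2.47). The counterparts of RRM2 and TK1 that act outside S phase did not share this. RRM2B, the p53-induced subunit, was at 0.35 and the mitochondrial TK2 at 0.12. In the same list SAMHD1, which degrades deoxyribonucleotides, was at 0.02, and the enzymes NME1 and SHMT1 at −1.48 and −1.11.

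Chromatin assembly and DNA methylation genes were lower in 18 of 19 cases, 12 at least 2-fold (median −1.10). UHRF1 was at −3.23, the histone chaperone ASF1B at 43.0, 34.7, 3.98 and 6.90 FPKM (−3.14) and the maintenance methyltransferase DNMT1 at 28.8, 23.7, 7.77 and 8.73 FPKM (−1.77). Homologous recombination and Fanconi anaemia genes were lower in 27 of 29 cases, 16 at least 2-fold (median −1.12), among them RAD54L, a motor protein of strand exchange (7.84, 9.37, 0.564 and 1.75 FPKM, −2.50), and FANCI (−2.32).

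Among regulators upstream of these genes the lists split. Of 21 E2F, pocket and MuvB proteins 5 were at least 2-fold lower (median −0.38). FOXM1, a driver of G2 and M genes, stood at 19.98, 17.97, 1.65 and 5.41 FPKM (−2.98), E2F2 at 5.79, 5.28, 0.331 and 0.806 FPKM (−2.35), with E2F1 at −2.19, E2F8 at −1.78 and MYBL2 (B-MYB) at −1.37. The retinoblastoma protein RB1 was at −0.11 and its relative RBL2 at 0.26. In the list of G1 cyclins, CDKs and inhibitors 7 of 20 were at least 2-fold lower (median −0.78). CDK1 and CCNA2, which are also in the mitotic list, were among these. The others were the CDK-binding CKS1B (−2.2) and CKS2 (−1.08), CDKN2C (−1.99), CCNE2 (−1.25) and CDK2 (−1.15). The inhibitors CDKN1A and CDKN1C stood at 79.7 and 90.4 and 3.87 and 8.26 FPKM (0.18 and 0.93), and CCND1 (cyclin D1), which partners CDK4 and CDK6, at 25.3 and 33.7 FPKM (0.40). No gene of either list was 2-fold higher.

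**Figure D4:**
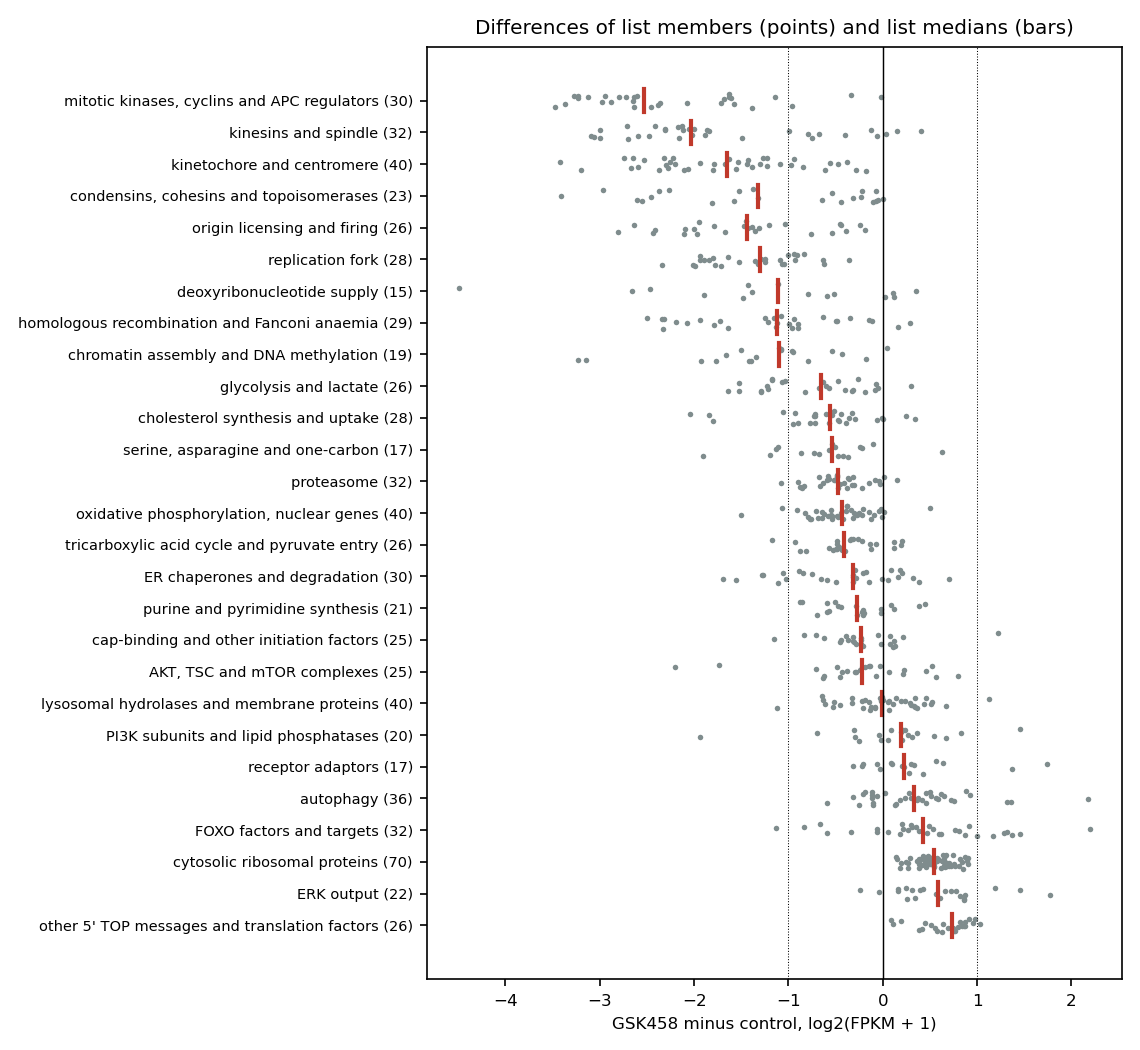
GSK458 difference (x axis, log2 of FPKM + 1) of each member (grey points) and the median (red bar) of 27 gene lists, with the number of genes compared in parentheses; dotted lines mark 2-fold. The 9 lists of replication, chromatin, recombination and mitosis have medians below −1, the lists of glycolysis, cholesterol, serine, nucleotide synthesis, oxidative phosphorylation and the tricarboxylic acid cycle lie between −0.65 and −0.27, and ribosomal proteins and TOP messages are the narrowest lists above 0.

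Metabolic enzymes were lower in several lists, mostly by less than 2-fold. Of 26 genes of glycolysis and lactate 25 were lower and 11 at least 2-fold (median −0.65). PGAM1 stood at 506, 327, 162 and 199 FPKM (−1.64), TPI1 at 1184, 984, 412 and 479 FPKM (−1.52), and ENO1 at 1252, 1085, 535 and 615 FPKM (−1.23), all 3 abundant glycolytic enzymes that were lowest in the GSK458 libraries. HK2, the hexokinase linked to tumour growth, was at 6.78, 10.1, 1.70 and 2.94 FPKM (−1.53) and the glucose transporter SLC2A1 at 15.0, 24.8, 5.91 and 14.4 FPKM (−1.21), where the library with both drugs was close to the control. PFKFB3, which makes an activator of phosphofructokinase, was the 1 higher gene (0.30). In the list of 20 hypoxia-induced genes 2 were at least 2-fold lower and 1 higher. The higher gene was EPAS1, the hypoxia factor HIF-2 alpha itself, at 54.2, 146, 111 and 149 FPKM (1.01). For EPAS1 As2O3 alone was above GSK458 alone, and both drugs minus As2O3 was 0.03.

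Of 28 genes of cholesterol synthesis and uptake 26 were lower and 4 at least 2-fold (median −0.56). The sterol sensor INSIG1 stood at 8.09, 25.6, 3.38 and 3.81 FPKM (−1.05). ACAT2, the thiolase of the first step, was at −1.80. In fatty acid synthesis 14 of 22 were lower (median −0.19), and the 4 at least 2-fold lower were the desaturases SCD (163, 195, 37.7 and 36.2 FPKM, −2.08) and FADS2 (−1.54), the elongase ELOVL6 (−1.10) and SREBF1, the transcription factor of this pathway (24.3, 15.6, 8.47 and 9.13 FPKM, −1.42). The mitochondrial fatty acid importers CPT1A and CPT1B went the other way, at 5.82, 4.95, 14.5 and 13.2 FPKM (1.18) and 5.87, 6.79, 13.9 and 15.9 FPKM (1.11), in a list of oxidation genes with a median of −0.08.

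In the serine, asparagine and one-carbon list 16 of 17 were lower (median −0.54). PHGDH, the first enzyme of serine synthesis, stood at 24.7, 69.4, 5.87 and 6.47 FPKM (−1.91) and PSAT1, the next, at 54.6, 80.9, 23.3 and 20.01 FPKM (−1.19); both were highest with As2O3 alone. The cytosolic SHMT1 and GOT1 were the others beyond 2-fold (−1.11 and −1.13). Of 21 purine and pyrimidine enzymes 17 were lower, none 2-fold (median −0.27). Nuclear genes of oxidative phosphorylation were lower in 38 of 40 cases (median −0.43), with ATP5G1 (−1.50) and NDUFS7 (−1.07) at least 2-fold. The tricarboxylic acid cycle list had a median of −0.41 with pyruvate carboxylase (PC) at −1.17, and in the NADPH list IDH2 was at 148, 162, 61.4 and 62.3 FPKM (−1.25). Of the metabolic lists, only glycolysis held more than 10 genes at least 2-fold apart.

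The proteasome and the ER folding list leaned to the low side, and the cytosolic heat shock proteins did so little, with 13 of 22 lower, none 2-fold (median −0.05). Of 32 proteasome subunits 30 were lower (median −0.48), PSMB3 by 2-fold (−1.08). Of 30 ER chaperone and degradation genes 22 were lower and 7 at least 2-fold (median −0.31). CALR (calreticulin) stood at 872, 480.3, 269 and 294 FPKM (−1.70) and HSPA5 (BiP) at 342, 313, 158 and 158 FPKM (−1.11), while DNAJB9, an inducible cofactor of BiP, was at 0.70. For CALR all 3 treated libraries were below the control. Amino acid transporters had a median near 0 whose sign turned with scaling, and SLC7A5, the leucine importer, was the 1 beyond 2-fold at 11.2, 52.5, 4.59 and 9.69 FPKM (−1.13). Of 22 aminoacyl-tRNA synthetases 15 were lower (median −0.22), WARS by 2-fold (−1.11).

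Autophagy genes leaned to the high side, with 25 of 36 higher (median 0.33). FAM134B, a receptor for autophagy of the ER, stood at 0.365, 0.899, 5.19 and 6.16 FPKM (2.18), ATG16L2 at 5.14, 6.34, 14.7 and 11.8 FPKM (1.36), and the receptors OPTN and SQSTM1 at 0.92 and 0.75. Lysosomal hydrolases had a median near 0 whose sign turned with scaling, with 1 gene beyond 2-fold each way, CTSF, a cathepsin (58.0 and 128 FPKM, 1.13), and GLA, alpha-galactosidase (49.4 and 22.2 FPKM, −1.12). Of 16 V-ATPase subunits, the lysosomal proton pump, 11 were lower and none 2-fold.

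Among genes outside these pathways, GPX3, a secreted glutathione peroxidase that also marks clear cell carcinoma, had the largest difference with a level above 0 in the control. It stood at 2.12, 4.55, 155 and 144 FPKM (5.64), so the GSK458 libraries were far above the others. The remaining 16 glutathione peroxidases and transferases lay between −0.84 (GSS) and 0.45 (GPX1). SHISA2, which antagonises WNT and FGF receptors, stood at 0.535, 1.14, 12.7 and 14.0 FPKM (3.15), CYP27A1, the sterol 27-hydroxylase of mitochondria, at 4.26, 4.10, 29.3 and 30.5 FPKM (2.52), and SHH, the hedgehog ligand, at 0.994, 3.97, 10.3 and 11.2 FPKM (2.50). With As2O3 alone SHH stood between the control and the GSK458 libraries, while CYP27A1 was close to the control. RIMKLB, a ligase that makes N-acetylaspartylglutamate, was at 18.2, 36.5, 89.1 and 224 FPKM (2.23), SERPINE2, a protease inhibitor, at 17.4, 40.2, 70.6 and 119 FPKM (1.96), and the cytokine IL18 at 106, 176, 438 and 346 FPKM (2.04). HSD17B2, which inactivates oestradiol, stood at 1.87, 0.242, 10.5 and 10.4 FPKM (2.01) and TMEM27, a collectrin of the kidney, at 5.95, 3.09, 25.8 and 20.5 FPKM (1.95). H3F3A was listed near 0 in the libraries without GSK458 and at 9.47 FPKM with it, a value that is uncertain because of its near-identical copies, and RNF5 is uncertain for the same reason. The other 8 of the 25 highest were RBFOX3, LOC100505817, BRE-AS1, PFDN4, TIPARP, C10orf54, SMAGP and CA8, with differences between 1.84 (CA8) and 2.55 (LOC100505817).

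Markers of clear cell carcinoma did not move as a block: of 17 compared, 4 were at least 2-fold higher (GPX3, HSD17B2, TMEM27 and TFPI2) and 4 at least 2-fold lower. The fibrinogen chains FGB and FGA stood at 87.1, 36.6, 15.1 and 12.2 FPKM (−2.45) and 21.5, 9.71, 7.38 and 7.83 FPKM (−1.42), the antimicrobial peptide DEFB1 at 89.2, 35.2, 19.0 and 8.02 FPKM (−2.17) and ANXA13 at −1.87. In all 4 the control was the highest of the libraries.

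Signalling outputs beside PI3K were split. Of 22 genes induced by ERK 20 were higher (median 0.59), and MAFF (7.19, 40.4, 27.1 and 29.9 FPKM, 1.78), the ERK phosphatase DUSP5 (10.8, 174, 31.5 and 83.6 FPKM, 1.46) and HMGA1 (44.5, 129, 103 and 168 FPKM, 1.19) were at least 2-fold. For each of these the control was the lowest library, and As2O3 alone was above GSK458 alone. The 17 immediate early genes had a median of 0.23, with CTGF at 4.70, 8.19, 17.3 and 13.9 FPKM (1.68), EGR1 at −0.69 and MYC at 45.2, 96.2, 88.4 and 57.0 FPKM (0.95). p53 targets had a median of 0.17 with GDF15 at 99.9, 836, 300.5 and 652 FPKM (1.58), and NF-kB genes one of 0.15 with SOD2 at 161, 575, 357 and 617 FPKM (1.14) and RELB at 1.09. In the BCL2 family BMF, a BH3-only protein, stood at 7.24, 9.69, 22.8 and 22.5 FPKM (1.53) and BCL2L12 at −1.17. Matrix genes COL7A1, COL6A1 and ITGA3 were at 1.60, 1.49 and 1.16 and COL17A1 at −1.27, in a list with 15 of 29 higher. TXNRD1, ABCC3 and AKR1C1 of the 23 NRF2 targets were at 1.33, 1.13 and −1.73, the last uncertain because of near-identical relatives.

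The libraries with As2O3 give a second reading of GSK458, the library with both drugs minus that with As2O3 alone, which shares no library with the first pair. There 256 genes (2.1%) were higher by 2-fold or more and 507 (4.16%) lower, and of any size 47.7% were higher and 52.3% lower. Of the 459 genes lower with GSK458 alone 301 were also at least 2-fold lower in this pair, which is 65.6% of the first list and 59.4% of the second, and 451 were below 0. Of the 269 higher genes 87 were at least 2-fold higher again, 32.3% of the first and 34.0% of the second list, and 239 were above 0. The medians were −2.07 for mitotic kinases (27 of 30 at least 2-fold lower), −1.72 for kinesins, −1.42 for kinetochore genes and −1.22 for licensing genes, each nearer to 0 than in the first pair. Those of 2 other cell cycle lists lay farther from 0, at −0.92 against −0.78 for G1 cyclins, CDKs and inhibitors and −0.42 against −0.38 for E2F factors, pocket and MuvB proteins. RRM2 was at −3.10, CDC20 at −2.51, GPX3 at 4.70 and CYP27A1 at 2.63. Ribosomal proteins had a median of 0.27 with 67 of 70 higher and the other TOP messages 0.39 with 22 of 26 higher. For FOXO factors and targets the median was 0.08, with 18 of 32 higher, 3 of them at least 2-fold, and 4 at least 2-fold lower. YPEL3 (1.68) and IGF1R (1.57) were again at least 2-fold higher, IRS2 (0.74) and PIK3IP1 (0.68) were not. The 4 lower ones were GADD45A (−1.51), GADD45B (−1.24), TSC22D3 (−1.13) and BBC3 (−1.07). Glycolysis had 5 of 26 genes at least 2-fold lower (median −0.59), cholesterol synthesis 9 of 28 (median −0.78) and the serine list 9 of 17 (median −1.01). ERK output genes had a median of −0.09, immediate early genes −0.88, NF-kB genes −0.68 and p53 targets −0.42, where those with GSK458 alone were above 0. The difference between the pairs was not tested.

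**Figure D5:**
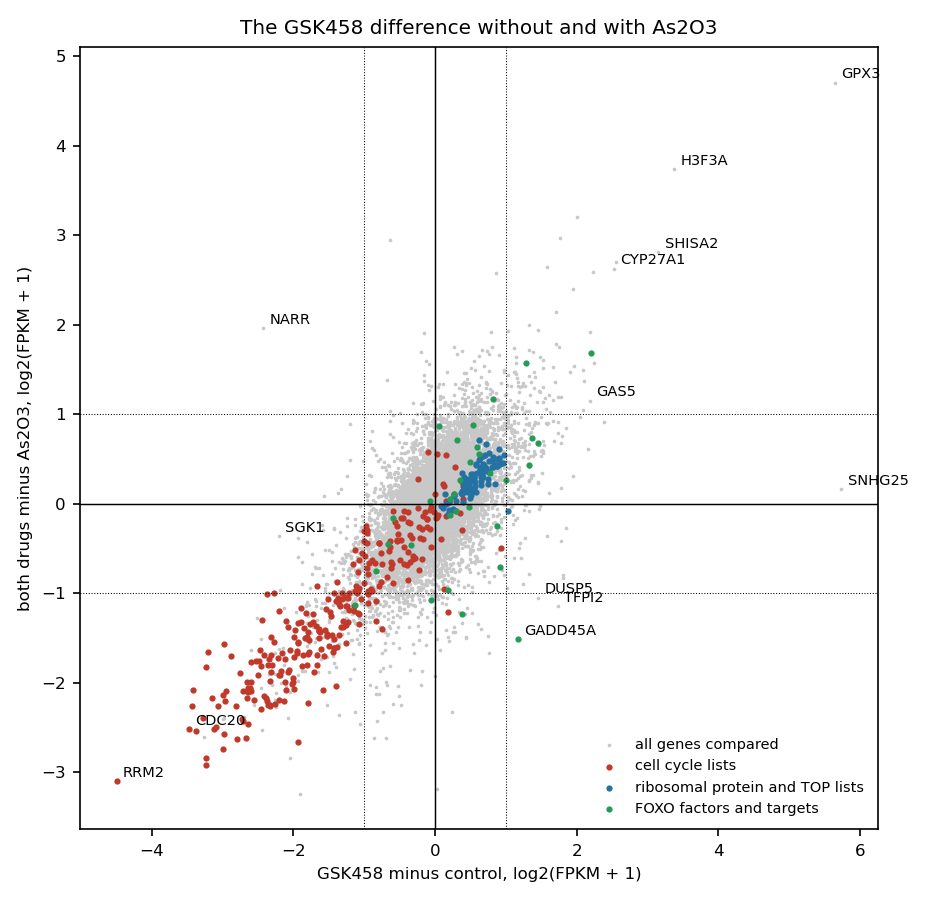
Difference of each of the 12200 genes without As2O3 (x axis, GSK458 minus control) and with it (y axis, both drugs minus As2O3), on the log2(FPKM + 1) scale, in the colours of the plot of levels in the control and with GSK458; dotted lines mark 2-fold. Cell cycle genes in red lie at the lower left in both pairs, GPX3 and SHISA2 at the upper right, and DUSP5, GADD45A, TFPI2 and NARR in the quadrants where the pairs have opposite signs.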

How the data were processed

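RNA of TOV21G cells was sequenced in 4 libraries, 1 per group. Column-purified RNA went into stranded mRNA libraries, per the labels' protocols. The authors deposited FPKM values. The submitters' processing notes name Cuffdiff 2.2.1, SAMtools 0.1.18, Bowtie2 2.2.8, TopHat2 2.1.1 and the build hg19, with no roles. The sources used here do not give the annotation, the strand setting or the handling of reads with several matches, so values of genes with close copies, pseudogenes or overlaps are uncertain.

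Python 3.11.15 with pandas 2.3.3 and NumPy 2.4.6 computed log2 differences after adding 1 FPKM to the values as deposited. Genes with a mean under 1 FPKM and 60 small RNA symbols were left out. The code was tested on simulated data with known changes. Absolute depth is unknown, as FPKM hold no counts of reads.

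The comparison, the 63 gene lists (1574 entries) and the promoter motifs were chosen with earlier results of these data known. By rule the text draws on the 25 highest and 25 lowest genes with at least 5 FPKM in the control or with GSK458, from each list at most 8 members per direction that are at least 2-fold apart (otherwise its 2 largest), all members of the pathway lists, and GPX3, IRS2 and RRM2. Some genes that the rule covers are not reported here. Alternatives were 9 other choices of pseudocount, filter, scaling and small RNA symbols.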

Additional observations from a re-analysis of the deposited data

Results flagged for a closer look

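Among genes that are not small RNA symbols 4 differed by at least 2-fold in opposite directions in the pair without As2O3 and the pair with it. The difference between the pairs was not tested, since each library stands alone. DUSP5, a phosphatase of ERK, had a difference of 1.46 for GSK458 minus control and −1.05 for both drugs minus As2O3. GADD45A, a growth arrest gene, had 1.17 and −1.51. TFPI2, a protease inhibitor and marker of clear cell carcinoma, had 1.74 and −1.14, with levels of 32.0 (control), 664 (As2O3), 109 (GSK458) and 301 FPKM (both drugs). These 3 genes were highest with As2O3 alone. NARR, which overlaps RAB34 so that its value is uncertain, had −2.42 and 1.96.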

How the results depend on the processing

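The count of genes at least 2-fold higher with GSK458 (269) was 453 with a pseudocount of 0.1 FPKM and 106 with one of 5 FPKM, and that of lower genes (459) was 245 with 5 FPKM. For both drugs against As2O3 the higher count (256) was 559 and 54 with these pseudocounts, 139 where genes had to average 5 FPKM, and 389 with libraries rescaled to a sum of 1000000, and the lower count (507) was 260 with 5 FPKM. That rescaling moved the median of all genes from −0.01 to −0.11 and gave 268 higher and 630 lower genes with GSK458. Of 540 list medians under the 9 alternatives 15 moved by 0.3 or more, in 10 of 60 lists. Counted separately, 10 lists had a median that changed sign under a scaling, and all of these lay near 0: receptor tyrosine kinases, ATF4 and stress regulators, the BCL2 family, HLA class I, the MYC network, amino acid transporters, glutathione enzymes, interferon-stimulated genes, lysosomal hydrolases and metallothioneins. Of 2722 values of 307 named genes 55 crossed 2-fold, 44 of them with 5 FPKM. The 55 values came from 49 of the 307 genes. No gene at least 2-fold apart changed sign, and sign changes of smaller differences were not counted. No replicate could be left out. No paired analysis was possible because each group is 1 library.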
